A study of Mus musculus with 12 samples.

Results

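The 10 chemokine ligand genes described here were Ccl21a, Ccl19, Ccl20, Ccl25, Cxcl16, Cx3cl1, Ccl3, Ccl4, Cxcl9 and Cxcl10. They were taken by name from a table of 23284 genes, and all 10 were in the table. The names were chosen with earlier results of these data known. Chemokines are small secreted proteins that attract cells carrying the matching receptor. In the small intestine, epithelial cells, endothelial cells, stromal cells and leukocytes make different members of the family, and these direct lymphocytes into the epithelium, the lamina propria or the lymphoid follicles. Group 3 innate lymphoid cells (ILC3s) are lymphocytes of mucosal tissue that secrete IL-22 and IL-17A, and they follow such cues through receptors including CCR6, CCR7, CCR9 and CXCR6.

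The study asked whether palmitic acid, a long-chain saturated fatty acid, in mother's milk changes gut ILC3s of the offspring. RNA was sequenced from cells labelled ILC3s of HR-1 mice, a hairless strain, all 18 weeks old. Offspring of the PA milk group had been nursed by dams whose chow was supplemented with palmitic acid from birth until weaning, and offspring of the normal group (ND) by dams on the unsupplemented chow. The intraepithelial lymphocyte (IEL) fraction was shaken off the tissue with EDTA and DTT, and the lamina propria (LP) fraction was freed afterwards from the remaining tissue with collagenase. Each of the 4 groups (PA milk IEL, ND IEL, PA milk LP, ND LP) had 3 libraries. Both fractions were sorted for lineage-negative, Thy1.2+, CD25+, Nrp1+ cells. The study gives a further marker of this sort as CD45+ in a figure legend and as CD4+ in its methods. The libraries were amplified from low input without molecular identifiers. The labels number the libraries of a group from 1 to 3 but do not say whether each came from a separate mouse, so the p-values measure the spread between these libraries only.

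The values are FPKM, fragments per kilobase of transcript scaled to the mapped fragments of a library, which can be compared between genes of different length. Reads worked out from the deposited tables came to 8.79 to 14.55 M per library. A value under that of 3 reads, the floor, was not ordered against others, and this floor covers counting error only. PA milk IEL replicate 2 had 4390 genes at 1 FPKM or more and PA milk LP replicate 2 had 5637, against 7863 in ND IEL replicate 2 and 8406 to 11378 in the other 9 libraries. Il22, the gene of a cytokine typical of ILC3s, was between 0.0886 and 0.416 FPKM in the 3 PA milk LP libraries, at 0.164 in ND LP replicate 1, at 0.248 in PA milk IEL replicate 2 and at 0.177 in ND IEL replicate 2, and between 81.5 and 4339 in the other 6. Summed over 12 epithelial marker genes, the libraries held 1538 to 27961 FPKM in PA milk IEL, 15102 to 44764 in ND IEL, 343 to 1432 in PA milk LP and 2636 to 5636 in ND LP. The ligand values below are therefore those of the sorted fractions. In such bulk samples, fewer cells of a type and less RNA per cell cannot be told apart.

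The ligands were unevenly detected across the libraries. Ccl25 stood above its floor in 11 of 12 libraries, Ccl3 in 10, Cxcl16, Cx3cl1 and Ccl4 in 9 each, Cxcl10 in 7, Ccl19 and Cxcl9 in 4 each, and Ccl21a and Ccl20 in 3 each. Counted by library, 9, 8 and 10 of the 10 ligands were above the floor in ND LP and 8, 4 and 7 in ND IEL. In PA milk, 4, 2 and 8 were above it in LP and 5, 0 and 4 in IEL. Both replicates 2 of PA milk held the fewest, and these are also the libraries with the fewest genes.

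**Figure D1:**
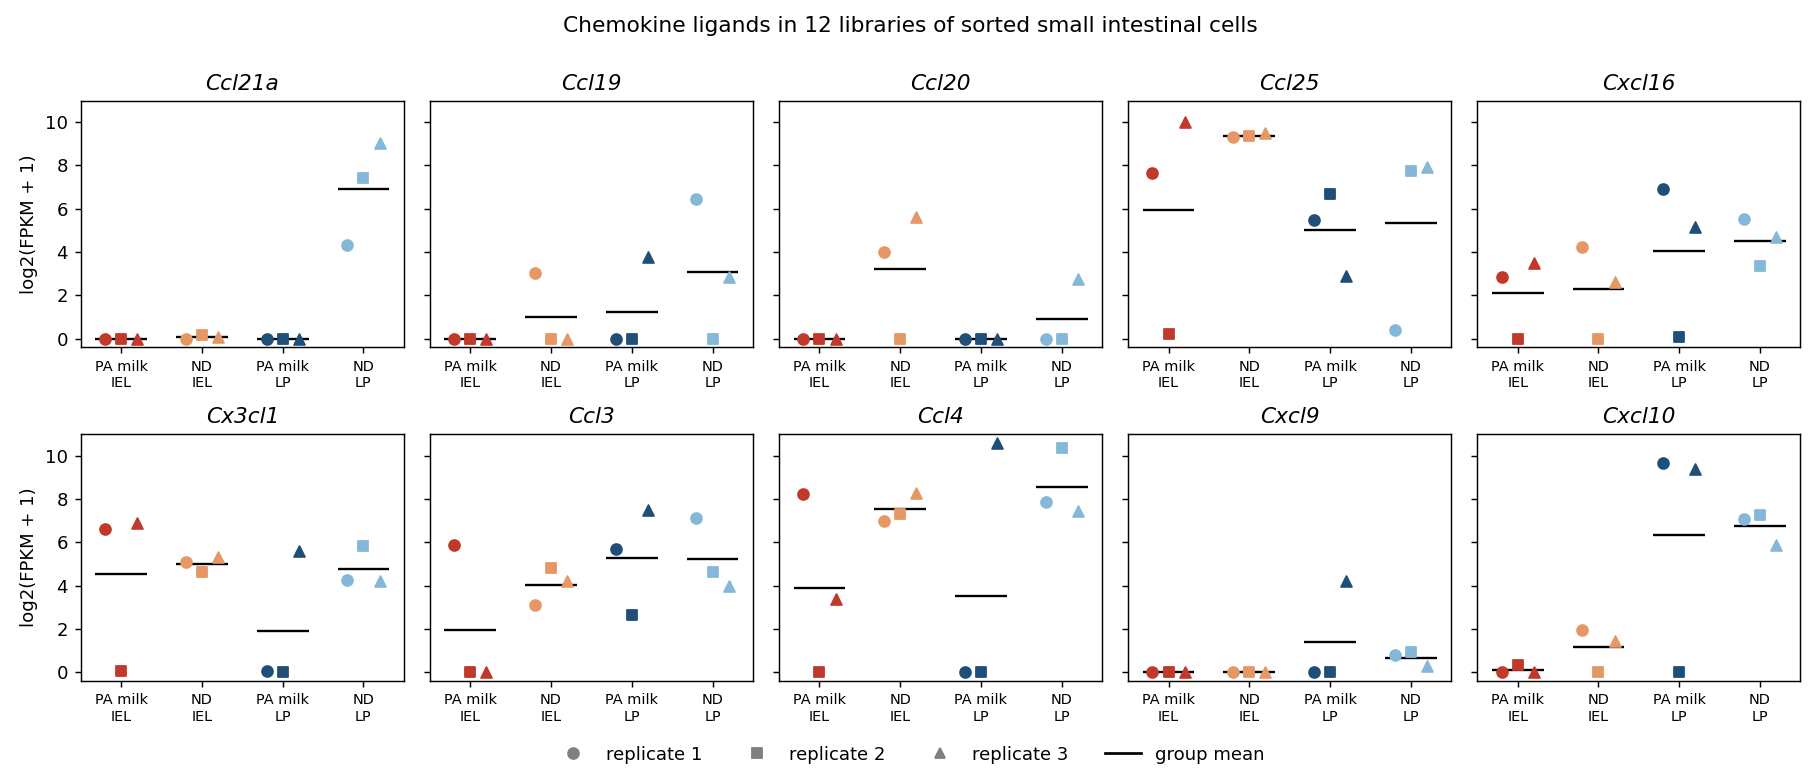
Each panel plots log2(FPKM + 1) of 1 ligand in the 12 libraries, by group; the marker shape gives the replicate number and the bar the mean of 3 libraries. Ccl21a is high in the 3 ND LP libraries alone, Ccl25 sits close together in ND IEL, and Cxcl10 is high in 5 of the 6 LP libraries.

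The ligand that made up most of the signal differed by layer and library. In ND IEL, Ccl25 gave 75.2%, 75.9% and 63.1% of the summed FPKM of the 10 ligands, and Ccl4 came second in all 3 libraries. In ND LP, Ccl4 led in replicates 1 and 2, with 34.4% and 67.9%, and Ccl21a in replicate 3, with 48.7%. The PA milk libraries shared no leading ligand within a layer. In PA milk LP it was Cxcl10 in replicate 1 with 78.8%, Ccl25 in replicate 2 with 95.0% and Ccl4 in replicate 3 with 61.2%. In PA milk IEL it was Ccl4 in replicate 1 with 45.5% and Ccl25 in replicate 3 with 88.3%, while replicate 2 held a sum of only 0.465 FPKM, with no ligand above its floor.

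**Figure D2:**
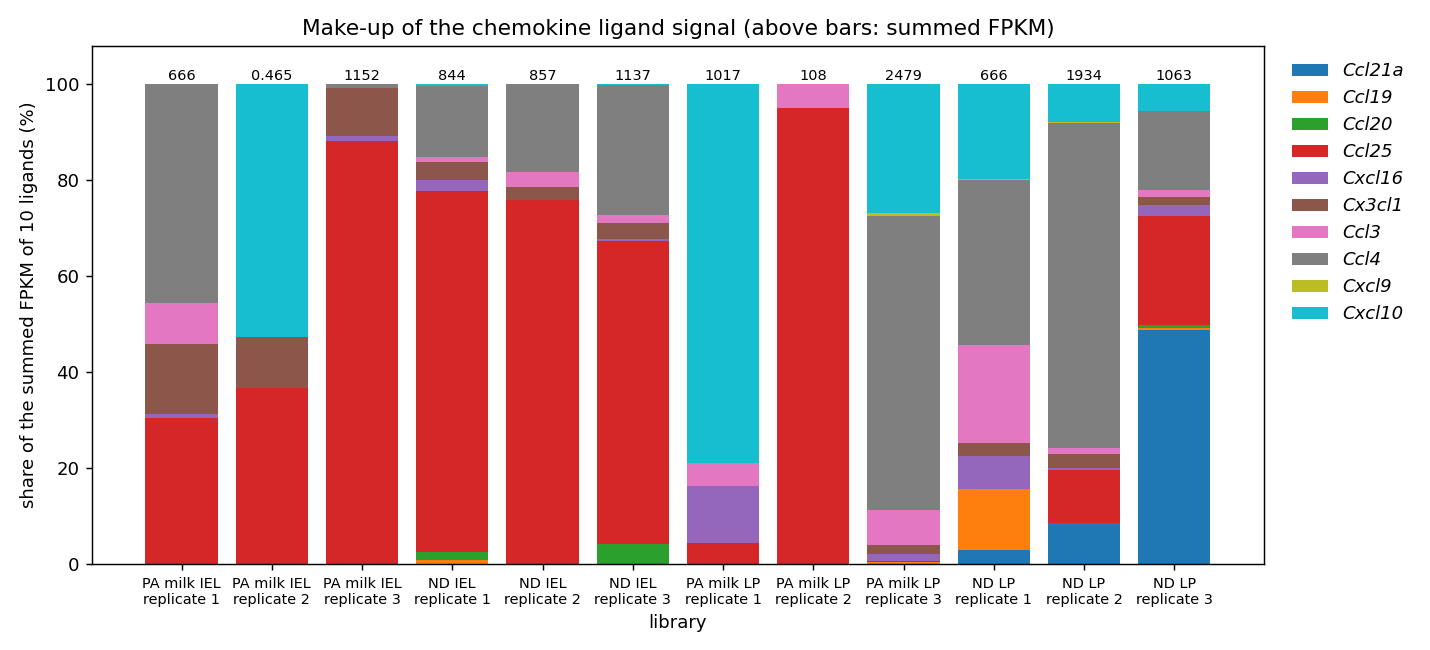
Stacked bars give the share (%) of each of the 10 ligands in their summed FPKM, 1 bar per library, with the sum printed above the bar. Ccl25 fills most of the 3 ND IEL bars, and no ligand leads all 3 libraries of PA milk in either layer.

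Each of the 10 genes was then compared between the milk groups within a layer and between the layers, in 1 limma fit of all genes on the log2(FPKM + 1) scale. That scale understates the change of low genes. Of the 10, 9 passed the filter of at least 1 FPKM in at least 3 libraries, and Cxcl9 did not. P-values were adjusted over the 12502 genes tested, and 0 of the 9 ligands passed the threshold of 0.05 between PA milk and ND in IEL, as did 0% of all genes. In LP 0 of the 9 passed as well, with 0% of all genes. An unadjusted p-value under 0.05 with a lower level in PA milk was reached by 1 ligand in IEL, Ccl20 (2.82% of all genes), and by 2 in LP, Ccl21a and Ccl4 (4.04% of all genes). Ccl20 passed the filter only through ND libraries and Ccl21a only through ND LP libraries, so for both a lower level in PA milk had to follow. The milk groups did not overlap for 0 of 10 ligands in IEL, where 2.97% of all genes lay wholly above ND in PA milk and 5.22% wholly below. In LP 0 of 10 ligands lay wholly above (2.97%) and 1 wholly below (6.6%).

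The log2 fold changes of PA milk against ND were below 0 for 9 of 9 ligands in IEL, with a median of -1.03. Ccl21a was under the floor in all 6 IEL libraries, so its sign there carries no order, and the other 8 had a median of -1.55. Of all genes, 60.5% were below 0 in that comparison, with a median of -0.30. In LP, 8 of 9 ligands were below 0, with a median of -0.91, against 62.2% of all genes and a median of -0.36. The ninth, Ccl3, was at 0.05 and turned to -0.064 under upper quartile scaling. The counts below 0 include Ccl20 in both layers and Ccl21a in LP, whose direction followed from the filter. The difference between the 2 diet effects, LP minus IEL, passed for 0 of 9 ligands and for 0% of all genes, with an adjusted p-value of 0.9999 for all 9. Unadjusted, 1 of 9 was under 0.05, Ccl21a at -6.85 (SE 1.56), where 1.42% of all genes were so in that direction. Since Ccl21a passed the filter only through the ND LP libraries, a difference in that direction had to follow. The 2 PA milk libraries with the fewest genes lie in these counts. Without both, the direction in IEL turned for Cxcl16 and Cx3cl1 (log2 fold changes 0.87 and 1.73), and the direction in LP turned for Cxcl16 and Cxcl10 (1.53 and 2.77).

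Between the layers over both diets, 0 of 9 ligands passed, where 0.88% of all genes did. Ccl21a passed the filter only through the ND LP libraries, so a higher level of it in LP had to follow. The adjusted p-values of Ccl21a and Cxcl10 were 0.0509 and 0.0508, just above the threshold, and both passed when PA milk LP replicate 2 was left out (0.0326 and 4.74e-05). Without ND LP replicate 3 Ccl21a was at 0.0715, and without PA milk LP replicate 1 the 2 were at 0.117 and 0.125. Ccl21a passed in 4 of 21 alternatives (0.00370 to 0.257) and Cxcl10 in 5 of 22 (2.87e-05 to 0.308). Of the 9 ligands, 6 were higher in LP and 3 lower (53.4% and 46.6% of all genes), and those 2 were also the ones with an unadjusted p-value under 0.05 and a higher level in LP (7.34% of all genes). In PA milk 0 of 10 ligands had layers that did not overlap, against 4.51% of all genes with LP above IEL and 4.06% with LP below. The plot of fold changes shows the error of each comparison beside its dependence on single libraries.

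**Figure D3:**
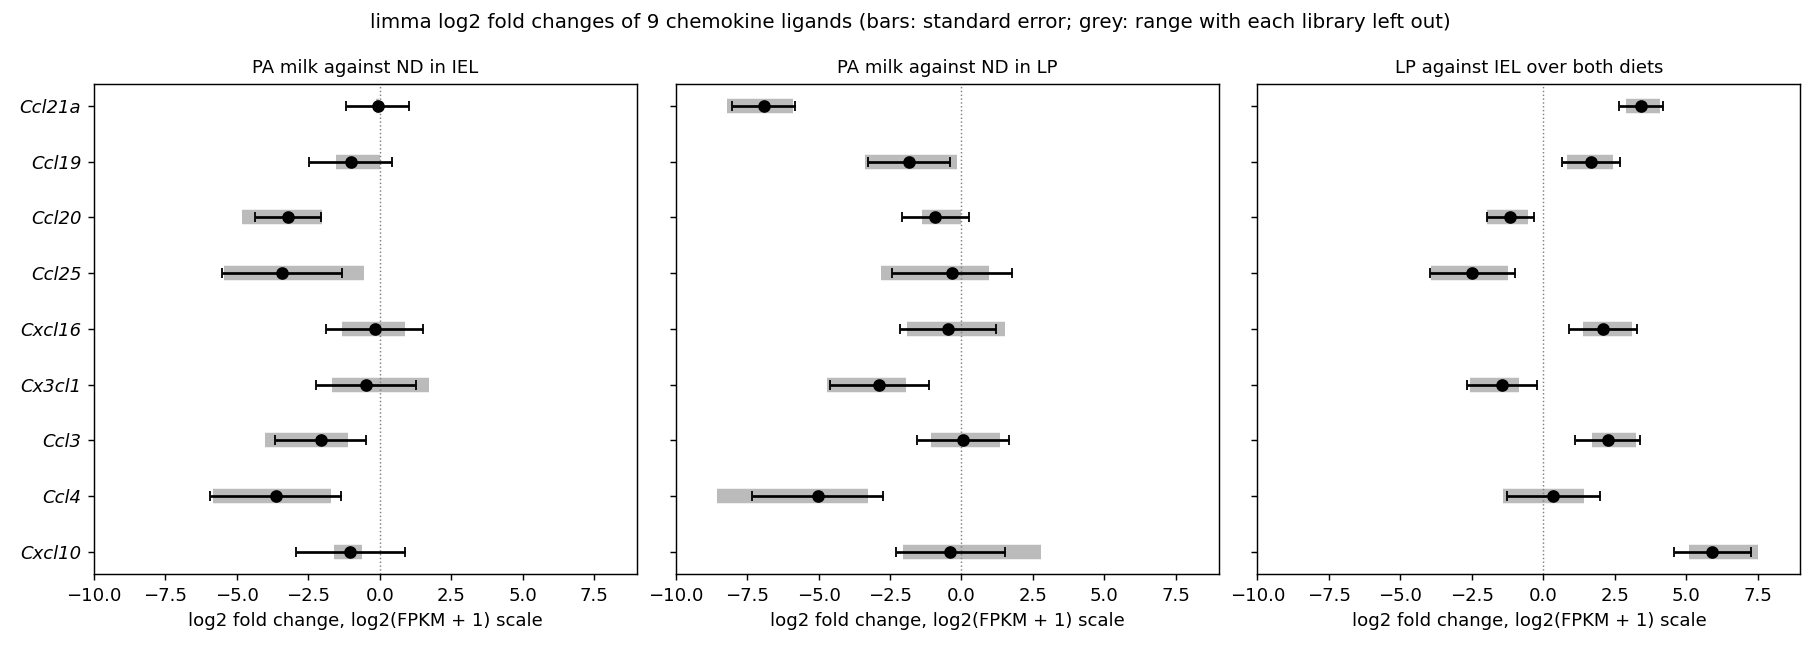
Points give the limma log2 fold change on the log2(FPKM + 1) scale for the 9 ligands tested, bars the standard error and grey bands the lowest and highest value when each of the 12 libraries was left out in turn. Ccl21a in LP stays between -8.21 and -5.88, while the band of Cxcl10 in LP runs from -2.05 to 2.77.

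Ccl21a and Ccl19 are the ligands of CCR7, the receptor that brings dendritic cells and naive lymphocytes into lymph nodes and Peyer's patches. Lymphatic endothelium and stromal cells of lymphoid tissue are their usual sources. Both genes lie on chromosome 4 of GRCm38, on the minus strand, Ccl21a at 4:42772860-42773993 and Ccl19 at 4:42754525-42756577. Their promoters are shown because the 2 genes share a receptor and a chromosomal neighbourhood but not the letters before their starts. The 250 bases are those before each RefSeq start on GRCm38.p6, read 5′ to 3′ on the minus strand. The windows are chr4:42773992-42774241 for Ccl21a and chr4:42756366-42756615 for Ccl19. The RefSeq start of Ccl19 lies inside the gene interval given above, which is from GENCODE. Most of the Ccl19 window therefore overlaps that interval. Capitals mark letters of 3 patterns that were searched on both strands: an interferon-stimulated response element (ISRE-type, GAAA and GAAA with any 2 bases between), an interferon gamma activated site (GAS, TTC and GAA with any 3 between) and an NF-kB pattern (GGG and CC with any 5 between).
Ccl21a: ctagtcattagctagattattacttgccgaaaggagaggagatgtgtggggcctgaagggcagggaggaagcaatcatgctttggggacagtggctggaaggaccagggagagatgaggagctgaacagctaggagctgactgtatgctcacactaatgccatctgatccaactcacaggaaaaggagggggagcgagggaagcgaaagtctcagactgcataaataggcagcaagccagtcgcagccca
Ccl19: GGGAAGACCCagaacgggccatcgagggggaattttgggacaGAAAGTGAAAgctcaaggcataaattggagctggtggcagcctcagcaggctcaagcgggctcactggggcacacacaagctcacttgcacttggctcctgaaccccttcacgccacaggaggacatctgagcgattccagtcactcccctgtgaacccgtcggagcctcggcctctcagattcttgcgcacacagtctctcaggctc
In Ccl19 the ISRE-type letters began at position -208 from the RefSeq start, inside the GENCODE gene interval. The NF-kB letters began at -250, outside that interval. The Ccl21a window held none of the 3. Of 32851 promoters of this length, 2.98% held the ISRE-type letters, 7.02% the GAS letters and 45.8% the NF-kB letters, so a match to the last is common.

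Ccl21a was at 19.4, 168 and 518 FPKM in ND LP replicates 1, 2 and 3. It was listed at 0 in all 3 PA milk LP libraries and all 3 PA milk IEL libraries, and ND IEL held 0, 0.119 and 0.0494 FPKM, all under the floor. The LP groups did not overlap, and Ccl21a was the 1 ligand of 10 whose ND LP libraries all lay above PA milk LP (6.6% of all genes tested). Against the floor of the PA milk LP libraries, averaged over the group, the mean of ND LP was at least 596-fold higher, and at least 238-fold without ND LP replicate 3. The limma log2 fold change of PA milk against ND in LP was -6.92 (SE 1.10), with an unadjusted p-value of 1.203e-05 and an adjusted p-value of 0.0752. The value in ND LP spans a wide range, and without its lowest library, replicate 1, the adjusted p-value was 0.00532 with a log2 fold change of -8.21. Without the highest, replicate 3, these were 0.217 and -5.88. Over 21 alternatives the adjusted p-value ran from 0.00532 to 0.892, the latter with the LP libraries fitted alone, and 2 of the 21 passed. In IEL the log2 fold change was -0.08 (SE 1.10). The gene passed the filter only through the ND LP libraries, so a difference involving ND LP had to follow.

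Ccl21a has near-identical copies in the mouse genome, and its values are uncertain to that extent. Ccl21b and Ccl21c were listed at 0 in all 12 libraries. The annotated Ccl21a and Ccl21b transcripts match at 400 of 402 aligned bases (99.5%), so reads of these genes could be assigned to either.

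Markers of lymphatic vessels and stroma were read beside Ccl21a. Lyve1, a hyaluronan receptor of lymphatic endothelium, was at 5.82 and 34.0 FPKM in ND LP replicates 2 and 3 and listed at 0 in the other 10 libraries, among them ND LP replicate 1. Other genes of the same list were low and had other orders. Prox1 was at 1.53 FPKM in ND LP replicate 2 and at 0.419 in PA milk LP replicate 3, and was listed at 0 in ND LP replicate 3. Flt4 was at 0.513 in ND LP replicate 3 and at 1.85 in PA milk LP replicate 3. Pdpn was at 2.03 in ND LP replicate 3 and listed at 0 in the other LP libraries. Madcam1, the addressin of gut venules that binds the integrin α4β7, was at 450, 959 and 3765 FPKM in ND LP and at 1269, 49.6 and 1641 in PA milk LP, with no library of IEL above 8.86. Summed over 14 stromal and endothelial genes, ND LP held 543 to 4762 FPKM, PA milk LP 60.3 to 3873, ND IEL 2.69 to 13.7 and PA milk IEL 9.73 to 37.6. Of the 10 genes of that list that were tested, 10 were higher in LP than in IEL (53.4% of all genes) and 1, Madcam1, passed (0.88%). Pdgfra, Col1a1, Col1a2, Dcn and Lum passed the filter only through LP libraries, so a higher level of each in LP had to follow. Pdgfrb, a platelet-derived growth factor receptor of stromal and mural cells, was at 2.51, 6.07 and 8.36 FPKM in ND LP and was listed at 0 in all 3 PA milk LP libraries, the order that Ccl21a had. It was also the 1 tested gene of the list with an unadjusted p-value under 0.05 between the milk groups in LP (log2 fold change -2.62, SE 0.78, unadjusted p = 0.003906, adjusted p = 0.979 in limma). The list as a whole did not share that direction. In LP, 6 of its 10 tested genes were higher in PA milk and 4 lower, with a median log2 fold change of 0.04 (62.2% of all genes were lower). The part of these cells in the Ccl21a values was not tested.

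Ccl19 was scattered over 4 libraries. It was at 85.2, 0 and 6.21 FPKM in ND LP, at 0, 0 and 12.5 in PA milk LP and at 7.29, 0 and 0 in ND IEL, and it was listed at 0 throughout PA milk IEL. The milk groups overlapped in both layers, and 1 library, ND LP replicate 1, held most of the signal. The limma log2 fold changes of PA milk against ND were -1.02 (SE 1.45) in IEL and -1.84 (SE 1.45) in LP, with adjusted p-values of 0.974 and 0.979. Without ND LP replicate 1 the latter was -0.17, and without ND IEL replicate 1 the former was 0. Ccr7, their receptor, was at 133, 131 and 118 FPKM in ND LP, at 34.1, 0.0516 and 169 in PA milk LP, at 13.8, 0 and 13.0 in ND IEL and at 29.7, 0.0412 and 0.0447 in PA milk IEL. In limma Ccr7 was higher in LP than in IEL by 3.48 on the log2 scale (SE 1.26), with an unadjusted p-value of 0.01383 and an adjusted p-value of 0.221.

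Ccl25, Ccl20, Cxcl16 and Cx3cl1 are ligands that gut epithelial cells can make. Ccl25 is the small intestinal ligand of CCR9 and attracts lymphocytes to the epithelium. It lies at 8:4325210-4360020 on the plus strand. In ND IEL it was at 634, 650.0 and 718 FPKM, a mean of 667 ± 44.2 (SD, n = 3). In PA milk IEL it was at 203, 0.171 and 1017, so that one library lay far below and another above all of ND. In LP it was at 0.339, 211 and 242 in ND and at 44.3, 102 and 6.35 in PA milk, and the milk groups overlapped in both layers. Ccl25 was the 1 ligand of 10 whose ND IEL libraries all lay above ND LP, an order found in 9.95% of all genes tested.

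The limma log2 fold change of Ccl25 between the milk groups was -3.42 in IEL (SE 2.10, adjusted p = 0.947). Without PA milk IEL replicate 2 it was -0.55. In LP it was -0.33 (SE 2.10, adjusted p = 1.0), and the sign turned without any one of PA milk LP replicate 3, ND LP replicate 2 and ND LP replicate 3, up to 0.95. Between the layers it was -2.48 (SE 1.49, adjusted p = 0.524), and without both PA milk libraries of the fewest genes it was -4.33 (adjusted p = 0.0717). The 3 tested genes with the pattern most like Ccl25 over the 12 libraries were Maoa, Pbld2 and Spink3, with Pearson's r of 0.988, 0.955 and 0.949. These libraries share depth and cell makeup across genes, so the coefficients are descriptions. Maoa, a mitochondrial monoamine oxidase, was at 155, 302 and 212 FPKM in ND IEL and at 0.474 in ND LP replicate 1, where Ccl25 was at 0.339.

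Epithelial markers were read beside Ccl25. Of 12 epithelial genes, 11 had a log2 fold change of LP against IEL below 0 (46.6% of all genes) and 4 passed (0.88%): Alpi, Fabp2, Krt20 and Krt8. Krt19 was at -0.011 and Krt18 at 0.60. Fabp2, an intestinal fatty acid binding protein, was at 4726, 35069 and 7504 FPKM in ND IEL and at 70.0, 283 and 432 in ND LP (log2 fold change -5.02, SE 0.89, adjusted p = 0.0150 over both diets). Krt8, a keratin of simple epithelia, had a log2 fold change of -1.87 (SE 0.42, adjusted p = 0.0484). The 2 did not move with Ccl25 in every library: in ND LP replicate 1 Krt8 was at 1047 FPKM with Ccl25 at 0.339. The part of epithelial RNA in the Ccl25 values was not tested.

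Ccr9, the receptor of Ccl25, was at 49.6, 124 and 14.9 FPKM in PA milk IEL and at 32.3, 92.9 and 81.6 in ND IEL. In LP, PA milk held 0.0189, 0.0443 and 34.3 FPKM and ND held 52.7, 13.3 and 4.91. Receptor and ligand did not follow each other library by library: PA milk IEL replicate 2 had the highest Ccr9 value of the 12 and a Ccl25 value under its floor. The log2 fold change of Ccr9 between the layers was -2.87 (SE 0.99, unadjusted p = 0.01053 and adjusted p = 0.194 in limma).

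Ccl20 is the ligand of CCR6 and is made by the epithelium over lymphoid follicles. It lies at 1:83116766-83119167 on the plus strand. It was at 15.3, 0 and 47.8 FPKM in ND IEL and at 0, 0 and 5.67 in ND LP, and was listed at 0 in all 6 PA milk libraries. The groups overlapped in both layers, since ND IEL replicate 2 and ND LP replicates 1 and 2 were at 0 too. Against the floor of PA milk IEL the mean of ND IEL was at least 49.1-fold higher, and at least 17.9-fold without ND IEL replicate 3. The gene passed the filter through 3 ND libraries only, so a lower level in PA milk had to follow. In limma the IEL difference was -3.21 on the log2 scale (SE 1.16), with an unadjusted p-value of 0.01376 and an adjusted p-value of 0.947. Ascl2, a transcription factor of intestinal stem cells, had the most similar pattern (Pearson's r = 0.999 over 12 libraries, 9 of them at 0 for Ccl20). It was at 7.52 and 15.3 FPKM in ND IEL replicates 1 and 3 and at 3.57 in ND LP replicate 3, the same 3 libraries.

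Ccr6 did not follow its ligand. It was at 133, 0 and 117 FPKM in PA milk IEL, where Ccl20 was listed at 0, and at 27.9, 0 and 32.9 in ND IEL. In LP, PA milk held 0.0768, 0 and 15.3 FPKM and ND held 117, 31.2 and 22.4, so that all 3 ND libraries lay above PA milk (6.6% of all genes tested do so). The log2 fold change in LP was -4.10 (SE 1.88, unadjusted p = 0.04502, adjusted p = 0.979 in limma).

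Cxcl16 is a membrane-bound ligand of CXCR6, the receptor found on many tissue-resident lymphocytes. It lies at 11:70453983-70459984 on the minus strand. It was at 121, 0.0407 and 35.1 FPKM in PA milk LP and at 45.6, 9.19 and 24.6 in ND LP. In IEL, PA milk held 6.12, 0 and 10.1 FPKM and ND held 18.0, 0 and 5.07. All groups overlapped, and every group but ND LP had replicate 2 under the floor. The log2 fold changes between the milk groups were -0.18 (SE 1.69) in IEL and -0.47 (SE 1.69) in LP. Between the layers it was 2.10 (SE 1.19), with an adjusted p-value of 0.495. Its receptor Cxcr6 was at 269.6, 0 and 253 FPKM in PA milk IEL, at 43.9, 0.0925 and 92.0 in ND IEL, at 0, 0 and 48.9 in PA milk LP and at 125, 93.1 and 65.8 in ND LP. In LP the groups of Cxcr6 did not overlap, with a log2 fold change of -4.65 (SE 2.11, unadjusted p = 0.04312, adjusted p = 0.979 in limma).

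Cx3cl1, or fractalkine, is anchored to the membrane and binds CX3CR1 on mononuclear phagocytes. It lies at 8:94772009-94782427 on the plus strand. It was at 96.2, 0.0496 and 116 FPKM in PA milk IEL and at 32.9, 23.6 and 38.6 in ND IEL, so that PA milk replicates 1 and 3 lay above and replicate 2 below all of ND. In LP, PA milk held 0.0530, 0 and 46.9 FPKM and ND held 17.9, 55.8 and 17.4. The log2 fold changes between the milk groups were -0.49 (SE 1.74, adjusted p = 1.0) in IEL and -2.87 (SE 1.74, adjusted p = 0.979) in LP. The first turned to 1.73 without PA milk IEL replicate 2, while leaving out single libraries moved the second between -4.72 and -1.93. Snx20, Galnt2 and Usp2 were most like it (Pearson's r = 0.978, 0.976 and 0.975 over 12 libraries). Cx3cr1 was above 1 FPKM in 3 libraries, at 11.3 in ND IEL replicate 3, 1.53 in PA milk LP replicate 3 and 16.4 in ND LP replicate 1.

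Ccl3 and Ccl4, also called MIP-1α and MIP-1β, are made by activated T cells, NK cells and macrophages, and Ccl3 is a ligand of CCR1. The 2 genes are neighbours on chromosome 11, Ccl3 at 11:83647844-83649355 on the minus strand and Ccl4 at 11:83662584-83664683 on the plus strand. Ccl4 was the most abundant ligand on average in LP, and it was higher than Ccl3 in 8 of the 8 libraries where both passed their floors. The ratio of their FPKM values ran from 1.69 in ND LP replicate 1 to 55.7 in ND LP replicate 2.

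Ccl4 was at 229, 1313 and 176 FPKM in ND LP and at 0, 0 and 1518 in PA milk LP. In IEL it was at 126, 156 and 309 in ND and at 303, 0 and 9.43 in PA milk. The 6 ND libraries all held Ccl4 above 100 FPKM, a cut taken from these values, and 2 of the 6 PA milk libraries did. Both replicates 2 of PA milk, the libraries with the fewest genes, were listed at 0. The groups still overlapped in both layers, since PA milk LP replicate 3 was the highest of all 12 and PA milk IEL replicate 1 lay within ND. In limma the log2 fold change between the milk groups was -3.64 in IEL (SE 2.30, adjusted p = 0.947) and -5.03 in LP (SE 2.30, unadjusted p = 0.04407, adjusted p = 0.979). The LP value was -8.56 without PA milk LP replicate 3 and -3.27 without PA milk LP replicate 1. Between the layers it was 0.34 (SE 1.63), with a sign that depended on which library was left out (-1.42 to 1.43).

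Ccl3 was at 136, 23.6 and 14.7 FPKM in ND LP and at 50.2, 5.33 and 181 in PA milk LP. It was at 7.52, 26.7 and 17.5 in ND IEL and at 57.6, 0 and 0 in PA milk IEL. The milk groups overlapped in both layers, and the highest library in IEL and the highest in LP were both of PA milk. The log2 fold changes were -2.07 (SE 1.61, adjusted p = 0.947) in IEL and 0.05 (SE 1.61, adjusted p = 1.0) in LP. Between the layers it was 2.26 (SE 1.14), with an adjusted p-value of 0.414. In PA milk LP replicate 1, Ccl3 was at 50.2 FPKM while Ccl4 was listed at 0, the only library of the 12 with Ccl3 above 10 FPKM and no Ccl4.

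Ccr1 was low in most libraries. It was at 24.1, 0.0277 and 0 FPKM in PA milk IEL, at 2.21, 19.4 and 9.45 in ND IEL, at 0, 0 and 8.54 in PA milk LP and at 45.0, 29.5 and 0.294 in ND LP. The most alike genes were Rlim, B3galnt1 and Arhgef1 for Ccl3 (Pearson's r = 0.923, 0.921 and 0.885) and Med7, Gpr18 and A630007B06Rik for Ccl4 (0.977, 0.966 and 0.955), over 12 libraries. Gpr18, a G protein-coupled receptor of lymphocytes, was at 28.7 FPKM in PA milk LP replicate 3 and at 0.0706 and 0 in the other 2 PA milk LP libraries.

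Markers of the cells known to make Ccl3 and Ccl4 were read by group. Summed over 12 T and NK cell genes, of which 11 were in the table, ND IEL held 54.8 to 1601 FPKM, PA milk IEL 121 to 672, ND LP 162 to 229.8 and PA milk LP 127 to 316. Nkg7 and Gzmb, of cytotoxic granules, led that list, and Gzmb was at 407, 0 and 649 FPKM in ND IEL and listed at 0 in PA milk IEL. In PA milk IEL, 7, 8 and 6 of the 11 genes were listed at 0 in replicates 1, 2 and 3, against 0, 7 and 0 in ND IEL. Cd3e, Cd3d and Prf1 were among them in all 3 PA milk IEL libraries. In PA milk IEL replicate 2, Nkg7 was at 672 FPKM and made up nearly all of the sum. Summed over 14 macrophage and dendritic cell genes, the 4 groups held 405 to 13437 FPKM, led by Lyz2 and C1qc. In both lists 0 genes passed in any of the 4 comparisons, and their part in the ligand values was not tested. B and plasma cell genes, led by Igj and Xbp1, summed to 148 to 20216 FPKM and also had 0 genes past the threshold.

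Cxcl9 and Cxcl10 bind CXCR3 on effector T cells and NK cells and are induced by interferons. The 2 genes are neighbours at 5:92321347-92328079 and 5:92346638-92348889 on the minus strand. Their promoters are shown because the pair shares a receptor and an inducer while Cxcl10 was far more abundant. The 250 bases before each start, from RefSeq on GRCm38.p6 and read 5′ to 3′ on the minus strand, are chr5:92348890-92349139 for Cxcl10 and chr5:92328080-92328329 for Cxcl9, with capitals for the same 3 patterns as above.
Cxcl10: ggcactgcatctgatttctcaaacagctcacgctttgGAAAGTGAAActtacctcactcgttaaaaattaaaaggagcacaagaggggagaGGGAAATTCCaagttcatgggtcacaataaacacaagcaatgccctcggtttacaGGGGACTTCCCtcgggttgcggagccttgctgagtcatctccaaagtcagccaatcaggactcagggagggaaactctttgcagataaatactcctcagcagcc
Cxcl9: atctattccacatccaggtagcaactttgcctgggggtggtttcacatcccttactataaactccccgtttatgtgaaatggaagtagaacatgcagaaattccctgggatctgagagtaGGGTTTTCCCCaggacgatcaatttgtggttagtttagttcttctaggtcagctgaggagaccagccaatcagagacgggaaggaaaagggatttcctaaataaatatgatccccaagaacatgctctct
In Cxcl10 the ISRE-type letters began at -213, with NF-kB letters at -159 and, in 2 overlapping matches, at -104 and -103. The Cxcl9 window held overlapping NF-kB letters at -130 and -129 and neither of the other patterns. Among the 8 ligands with a promoter in the table, Ccl19 and Cxcl10 held the ISRE-type letters, none held the GAS letters, and Ccl20, Ccl19, Cxcl9 and Cxcl10 held the NF-kB letters. Ccl4 and Cxcl16 had no entry.

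Cxcl10 was at 801, 0 and 662 FPKM in PA milk LP and at 132, 153 and 58.3 in ND LP. In IEL it was at 2.89, 0 and 1.75 FPKM in ND and at 0, 0.245 and 0 in PA milk, the last under the floor. All 3 ND LP libraries lay above all 3 of ND IEL, as was so for 2 of the 9 ligands tested (Ccl21a and Cxcl10) and for 9.34% of all genes tested. In PA milk the layers overlapped through LP replicate 2 alone. The limma log2 fold change of LP against IEL was 5.92 (SE 1.35, unadjusted p = 0.0004635, adjusted p = 0.0508). It was 7.50 without PA milk LP replicate 2 (adjusted p = 4.74e-05) and passed the threshold also with sample quality weights (6.81, adjusted p = 9.25e-05), with median ratio scaling (5.78, adjusted p = 0.0459) and with replicate numbers entered as a block (5.92, adjusted p = 0.0472). It did not pass in 17 of 22 alternatives, where the adjusted p-value reached 0.125 without PA milk LP replicate 1, 0.138 with limma-voom and 0.308 with no filter. The lowest, 2.87e-05, came without both PA milk replicates 2.

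Between the milk groups in LP, Cxcl10 had a log2 fold change of -0.40 (SE 1.90, adjusted p = 0.9994). PA milk replicates 1 and 3 lay above all of ND and replicate 2 below, so the value without replicate 2 was 2.77 and without replicate 1 it was -2.05. In IEL it was -1.03 (SE 1.90, adjusted p = 0.987). The diet effects of the layers differed by 0.64 (SE 2.69), which did not pass either.

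Cxcl9 stayed under the filter and has no test. It was at 17.6 FPKM in PA milk LP replicate 3 and at 0.722, 0.877 and 0.214 in ND LP, and was listed at 0 in PA milk LP replicates 1 and 2 and in all 6 IEL libraries. The 3 ND LP libraries all lay above ND IEL, at least 7.86-fold by the mean against the floor. Cxcl9 and Cxcl10 were not in a constant ratio: in PA milk LP replicate 1 Cxcl10 was at 801 FPKM with Cxcl9 at 0, and in replicate 3 they were at 662 and 17.6. Cxcr3, their receptor, was at 30.6, 26.4 and 56.9 FPKM in ND IEL, at 0, 0 and 70.6 in PA milk IEL, at 0, 10.9 and 5.71 in ND LP and at 0, 0 and 21.4 in PA milk LP.

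The genes most like Cxcl10 over the 12 libraries were Apold1, Gucy1a3 and Tek, with Pearson's r of 0.992, 0.989 and 0.988. Tek encodes the angiopoietin receptor TIE2 of blood vessel endothelium, and Apold1 is an early response gene of endothelial cells. Tek was at 102, 0.0205 and 92.8 FPKM in PA milk LP, at 21.7, 54.8 and 11.5 in ND LP and at 0.380 or less in IEL. Darc, the atypical chemokine receptor of venular endothelium that is now named Ackr1, was at 1522, 0.288 and 1700.1 FPKM in PA milk LP, at 236, 640.1 and 228 in ND LP and at 0.492 or less in IEL. Its difference between the layers passed in limma (log2 fold change 7.50, SE 1.39, adjusted p = 0.0186). Darc passed the filter only through LP libraries, so a higher level of it in LP had to follow. PA milk LP replicate 2, where Cxcl10 was at 0, was also the LP library with Tek and Darc near 0. In that library 15298 of the 23284 genes were listed at 0, the most of any LP library, so shared low values there are common. The part of endothelial RNA in the Cxcl10 values was not tested.

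**Figure D4:**
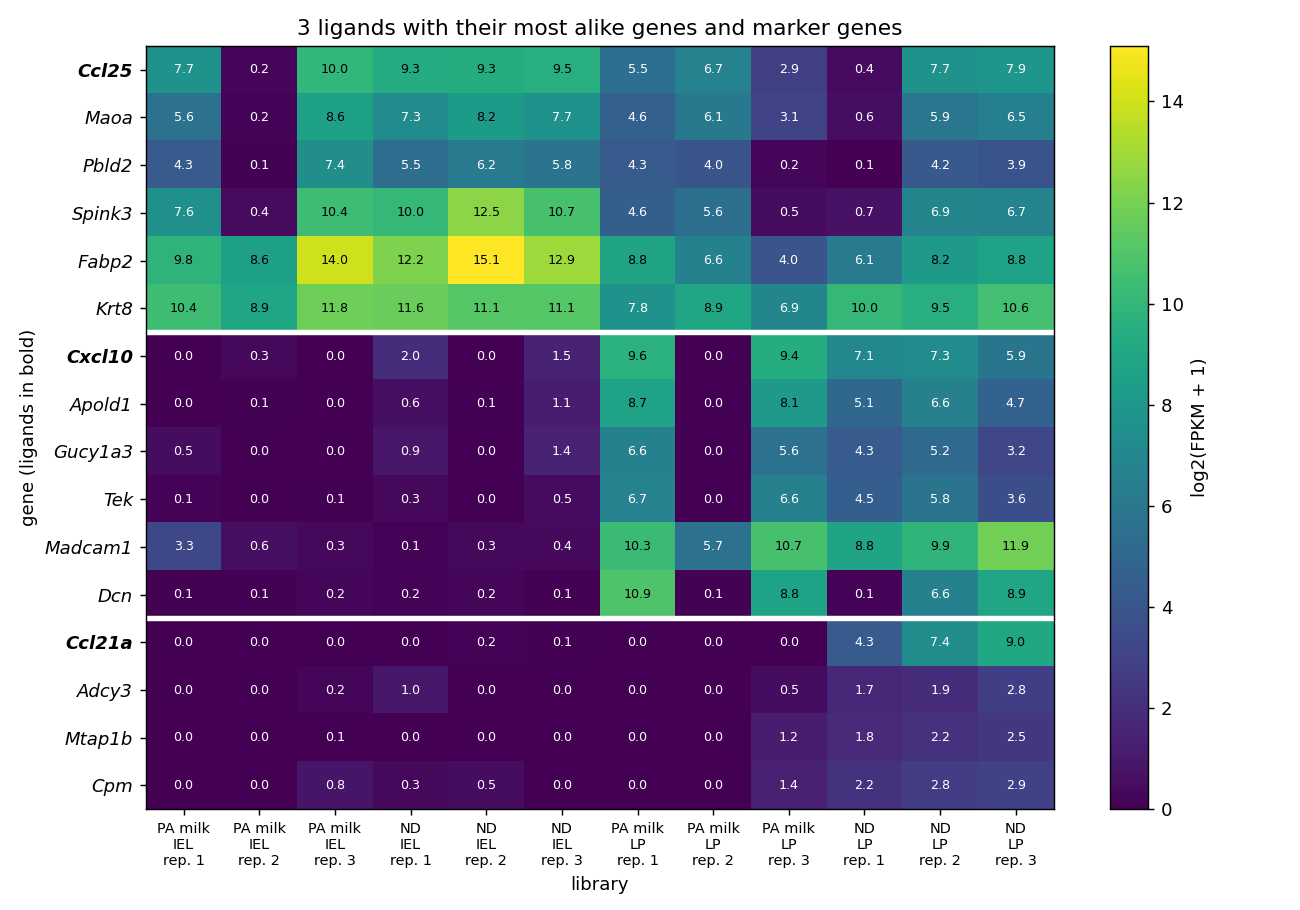
Rows give log2(FPKM + 1), as colour and number, of Ccl25, Cxcl10 and Ccl21a (bold), each above the 3 tested genes most like it over 12 libraries and, for the first 2, above marker genes; columns are the 12 libraries. Cxcl10, Apold1, Gucy1a3 and Tek are all near 0 in PA milk LP replicate 2 and high in the other 5 LP libraries.

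Genes induced by interferon gamma and by NF-kB were counted beside Cxcl10. Of 18 interferon gamma targets, 14 were higher in LP than in IEL (53.4% of all genes) and 1 passed (0.88%), Iigp1, an immunity-related GTPase (log2 fold change 6.23, SE 0.88, adjusted p = 0.00332). Iigp1 was at 539, 27.9 and 585 FPKM in PA milk LP and at 369, 242 and 59.4 in ND LP, against 0.0533 to 16.2 in IEL. The 2 most abundant targets were Irf1 and Psmb8, and their layer differences did not pass. Of 12 NF-kB targets, 11 were higher in LP (53.4% of all genes) and 0 passed (0.88%). The most abundant were Nfkbia and Icam1. Icam1, an adhesion molecule of activated endothelium and leukocytes, was at 5436, 0.508 and 2057 FPKM in PA milk LP and at 661, 1886 and 176 in ND LP, so PA milk LP replicate 2 was again the lowest. Between the milk groups 0 genes of either list passed in either layer.

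The 8 receptors of the ligands were all tested, and 0 passed in any comparison. In LP 8 of 8 had a log2 fold change below 0 between PA milk and ND (62.2% of all genes). Unadjusted limma p-values were under 0.05 for 2 of them, Ccr6 and Cxcr6 (4.04% of all genes in that direction). In IEL 5 of 8 were below 0 (60.5% of all genes), while Ccr6 and Cxcr6 were above 0 there, at 1.34 and 1.31. Receptor levels summed to 124 to 512 FPKM in PA milk IEL, 139 to 302 in ND IEL, 0.0959 to 309.9 in PA milk LP and 229 to 488 in ND LP. PA milk LP replicate 2 held the lowest of these sums and replicate 1 the next, with Ccr7 at 34.1 FPKM as nearly its only receptor. Of 4 atypical chemokine receptors, 2 were tested, and both, Darc and Cxcr7 (now Ackr3), were higher in LP (53.4% of all genes). Darc was past the threshold (0.88% of all genes), and its direction followed from the filter.

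Other chemokine ligands were counted as well. Of 32 further ligand genes, 31 were in the table, 9 were listed at 0 in all 12 libraries and 16 were tested, of which 0 passed in any comparison. Between the milk groups 10 of the 16 were below 0 in IEL (60.5% of all genes) and 11 in LP (62.2%), and 11 of 16 were higher in LP than in IEL (53.4%). Ccl2, Ccl11, Cxcl12 and Cxcl13 passed the filter only through LP libraries, and Ccl24 only through IEL libraries. The order of these genes between the layers therefore had to follow. Ccl6, a myeloid chemokine, was the most abundant on average, at 685, 22.0 and 217 FPKM in ND LP and at 24.0, 207 and 31.9 in PA milk LP. Cxcl1, a neutrophil attractant, came next and had an adjusted p-value of 0.0509 between the layers (log2 fold change 5.66, SE 1.29). It was at 367, 0.123 and 391 FPKM in PA milk LP and at 34.7, 227 and 143 in ND LP, with 6.86 as the highest IEL value. Like Cxcl10, it was near 0 in PA milk LP replicate 2 and highest in PA milk LP replicates 1 and 3.

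The genes with the most similar patterns were also read for the remaining ligands. Adcy3, Mtap1b and Cpm were most like Ccl21a (Pearson's r = 0.940, 0.923 and 0.918), and Scd1, Dnase1l3 and Mib1 most like Ccl19 (0.958, 0.939 and 0.923). None of the first 3 exceeded 6.60 FPKM, and all 3 were highest in ND LP replicate 3, as Ccl21a was. Tbc1d19, Smurf1 and Rangap1 were most like Cxcl16 (0.979, 0.963 and 0.947), and Ccdc57 and Polm followed Ascl2 for Ccl20 (0.997 and 0.990).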

How the data were processed

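The members and gene lists were chosen with earlier results of these data known. The authors mapped reads to mm10 (TopHat2 2.1.1, Bowtie2 2.2.8.0, SAMtools 0.1.18) and deposited FPKM values from Cufflinks 2.2.1 for 23284 genes. Their deposited table of counts holds whole numbers on a common scale, a score (9376529 to 11710874 per library), not raw counts. Reads and the floor of 3 reads were worked out from both tables, where 90.9% to 99.0% of low values fell within 0.05 of a whole read.

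Log2(FPKM + 1) was tested with limma 3.58.1 (trend, R 4.3.3) in 1 fit of 4 group means over 12 libraries, for 12502 genes at 1 FPKM or more in at least 3. P-values were Benjamini-Hochberg adjusted over all of them (threshold 0.05). The smallest p that exact permutation of 3 against 3 libraries allows is 0.1. The genes named were the 10 ligands, the 3 tested genes most correlated with each, the receptors and the 2 most abundant of each list; the genes shown beside a ligand for comparison, such as Lyve1, Madcam1, Pdgfrb, Krt8, Krt18, Krt19, Tek, Iigp1 and Cxcr7, and those past a threshold were added after their values were seen. Alternatives were other scalings, filters, pseudocounts and weights, replicate blocks and leaving out libraries. Coordinates are GENCODE vM21 on GRCm38. Values of 2 genes of the lists are not reported here, and both stay in the counts over lists. The limma fit was tested on simulated data with a fixed spread for all genes, which was not matched to the spread of these ligands.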

Additional observations from a re-analysis of the deposited data

How the results depend on the processing

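Of 780 log2 fold changes of the ligands under alternatives, 721 kept their direction and side of the threshold, 11 passed it in addition, and 48 reached 0 or changed sign, 29 of them with 1 library left out. Limma-voom on reads worked out was added after seeing the data, and leaving out both PA milk replicates 2 was chosen with earlier results known. The cause of the shifts was not tested.

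With 1 library left out, PA milk against ND in IEL ran from -1.53 to 0 for Ccl19, -1.32 to 0.87 for Cxcl16 and -1.67 to 1.73 for Cx3cl1. In LP it ran from -1.37 to 0 for Ccl20, -2.80 to 0.95 for Ccl25, -1.91 to 1.53 for Cxcl16, -1.06 to 1.36 for Ccl3 and -2.05 to 2.77 for Cxcl10. The difference of the diet effects ran from -2.37 to 0.84 for Ccl19, -1.73 to 1.71 for Cxcl16, -4.91 to 0.79 for Ccl4 and -1.02 to 3.81 for Cxcl10, and LP against IEL from -1.42 to 1.43 for Ccl4. Genes called ran from 0 to 1 in IEL, 0 to 8 in LP and 37 to 521 between the layers (110 with all libraries), and ligands called from 0 to 1 in LP and 0 to 2 between the layers. The extremes came without PA milk IEL replicate 3, PA milk LP replicate 3, and ND IEL replicate 2 and PA milk LP replicate 2, in that order, and the count between the layers moved by over 1.5 times without any library but PA milk IEL replicate 1.

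Without both PA milk replicates 2, Cxcl16 and Cx3cl1 in IEL were at 0.87 and 1.73, Cxcl16 and Cxcl10 in LP at 1.53 and 2.77, and the differences of Ccl25 and Cxcl16 at -0.62 and 0.66, with 826 genes and 2 ligands called between the layers. With quality weights, Cx3cl1 in IEL was at 1.10, Cxcl16 and Cxcl10 in LP at 1.27 and 1.80, the differences of Ccl19, Ccl25 and Cxcl16 at 0.79, -0.65 and 1.58, and Ccl4 between the layers at -0.16, with 3 genes and 1 ligand called in LP and 982 genes and 2 ligands between the layers. Ccl21a in LP was then at -7.49 (limma adjusted p = 0.0177). A pseudocount of 0.1 put Ccl25 in LP at 0.13 and Ccl4 between the layers at -0.19, with 58 genes called there. Limma-voom put Ccl25 and Ccl3 in LP at 0.30 and -0.088 and Ccl4 between the layers at -0.082, with 3 genes called in LP. Upper quartile scaling put Ccl3 in LP at -0.064. With no filter, 2 genes were called in LP, 1 in the difference and 19 between the layers, and median ratio scaling called 1 ligand between the layers.

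Same-numbered libraries did not deviate together (correlation of deviations -0.12 to 0.12 over 18 pairs, and -0.03 to 0.06 over 6 pairs of the same diet and number), and 4 of 12 libraries were most alike to one of their own number. With the number as a replicate block, 3 genes were called in LP, and 103 genes and 1 ligand, Cxcl10, between the layers. With diet and number as the block, 1 gene was called in the difference and 29 between the layers. A count model on the deposited counts was not run, since they are scaled.

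A ligand listed at 0 is under the floor of 3 reads, not shown to be absent.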
